A study of Mus musculus with 2 samples.

Results

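The genes described here are the heat shock protein and DNAJ families of the mouse, taken as the protein-coding genes whose symbols begin with Hspa, Hspb, Hspd, Hspe, Hsph, Hsp90 or Dnaj. The annotation held 74 such genes, and 73 of them had an entry in the deposited gene tables, out of 21474 protein-coding genes matched. The exception was Hspa14. They were measured in common myeloid progenitors (CMP), bone marrow cells that give rise to granulocytes, monocytes, red cells and megakaryocytes. Each of 2 libraries was made from total RNA over 200 nucleotides of a pool of 100 primary cells from male adult C57BL/6J mice aged 5 to 6 weeks, with 2 sets of spike-ins. The labels number the libraries as biological replicates 1 and 2, each with its own biosample but 1 shared donor identifier. No treatment, heat exposure or second cell type belongs to the series, so members were compared with each other within CMP and the 2 libraries were set against each other. The labels do not tie the pools to separate mice, so no p-value here measures a spread between mice. Those of limma and edgeR rest on the spread between these 2 samples over many genes, which may be technical. Those of the binomial and Fisher's exact tests take in counting error only.

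Heat shock proteins are molecular chaperones, which bind unfolded polypeptides and help them to fold, to enter organelles or to be degraded. HSP70 proteins (the Hspa genes) bind and release clients in a cycle of ATP hydrolysis that is started by a J-domain protein (the Dnaj genes) and reset by a nucleotide exchange factor, and HSP90 proteins act later on kinases and receptors. Some family members are made in all cells at all times. Others are known for low basal levels and a steep rise when heat shock factor 1 (HSF1) binds heat shock elements in their promoters, and a further group serves the endoplasmic reticulum or the mitochondrion. The prefix also brings in genes that are no chaperones by themselves, such as Hspb11, an intraflagellar transport protein, Hspbp1, an exchange factor of HSP70, and Hspbap1, a partner of Hspb1.

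Promoter windows of RefSeq (build GRCm38.p6, 250 bases before to 50 bases after a start site) were at hand for 59 of the 73 members. The 14 without one were Hspa8, Hspa9, Hspa13, Hsp90aa1, Hsp90ab1, Hspb2, Dnajc2, Dnajc5, Dnajc5b, Dnajc11, Dnajc12, Dnajc18, Dnajc22 and Dnajc30. A heat shock element was searched as 3 alternating units of GAA and its inverse, GAANNTTCNNGAA or TTCNNGAANNTTC, where N is any base and both forms together cover both strands. It was found in 4 members (6.78%), against 0.662% of the 27025 genes in the table. These 4 were Hspd1 and Hspe1, the mitochondrial chaperonin and its lid, Hsph1, a large HSP70 of the cytosol, and Dnajb6, a J-domain protein. With 1 mismatch allowed among the 9 fixed bases, 14 members (23.7%) held it, against 8.15% of all genes. Of the stress-inducible cytosolic members that had a window, 6 of 8 then matched (Hspa1a, Hspa1b, Hspb1, Hsph1, Dnaja1 and Dnajb4), and of the constitutive ones 1 of 4 (Dnajb6). A match describes these letters only and is no evidence of binding.

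Hspe1 and Hspd1 are neighbours on chromosome 1 on opposite strands and have the same element in front of them. It is the single case among the members of 4 units in a row, a form that 0.0296% of all genes hold. It is shown on the strand of Hspe1 in capitals at chr1:55088053-55088082, from -95 to -66 of the Hspe1 start site, and GENCODE M21 places this stretch also in the 5′ UTR exon of the transcript Hspd1-202.
Hspe1: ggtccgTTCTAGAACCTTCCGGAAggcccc
The Dnajb6 element lies at chr5:29735844-29735872 on the plus strand, upstream of both RefSeq start sites and inside the first exon (5′ UTR) of Dnajb6-201 in GENCODE. The same stretch is annotated as coding sequence of Gm5129-201 on the opposite strand.
Dnajb6: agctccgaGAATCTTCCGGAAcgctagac
The element of Hsph1 lies after the start site, at chr5:149636288-149636300 on the minus strand in the 5′ UTR.
Hsph1: TTCTGGAAAGTTC

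The intronless genes Hspa1a and Hspa1b encode the classical inducible HSP70 and lie on chromosome 17 with start sites 12918 bases apart. Their windows are shown because the counts of this pair behaved differently in the 2 libraries. The windows were identical at 247 of the 250 bases before the start site. Capitals mark 2 overlapping 3-unit matches with 1 mismatch each, from -114 to -97. The stretches run from -200 to -1 on the minus strand, at chr17:34972157-34972356 and chr17:34959239-34959438, and overlap no annotated exon.
Hspa1a: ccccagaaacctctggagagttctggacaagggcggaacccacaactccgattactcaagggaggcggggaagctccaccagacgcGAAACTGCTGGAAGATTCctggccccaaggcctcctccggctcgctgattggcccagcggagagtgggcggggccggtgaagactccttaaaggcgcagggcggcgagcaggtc
Hspa1b: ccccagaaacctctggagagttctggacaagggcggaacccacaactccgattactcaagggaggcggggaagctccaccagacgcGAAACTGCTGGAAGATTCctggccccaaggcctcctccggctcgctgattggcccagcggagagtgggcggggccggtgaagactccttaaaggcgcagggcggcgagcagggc

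Members of the endoplasmic reticulum carried another motif. The endoplasmic reticulum stress element, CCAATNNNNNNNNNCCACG on either strand, is the site through which ATF6 and its partners act when unfolded protein builds up there. It occurred in 3 members (5.08%) against 0.137% of all genes, and all 3 were among the 9 members of the endoplasmic reticulum that had a window. Every match contains the CCAAT box, which was found in 40.7% of members and 41.1% of all genes, while the TATA box, TATAAA, was found in 6.78% and 15.7%. Hspa5, the HSP70 of the endoplasmic reticulum known as BiP, had 1 match (chr2:34772020-34772048, plus strand, -70 to -42, within the first exon of the longer transcript Hspa5-201). Hsp90b1, the HSP90 of that compartment, had 2 in opposite orientation (chr10:86705515-86705674, minus strand, -230 to -71). Dnajc3, a J-domain protein that also inhibits the kinase PERK, had 1 (chr14:118937802-118937881, plus strand, -130 to -51).
Hspa5: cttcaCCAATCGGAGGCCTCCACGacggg
Hsp90b1: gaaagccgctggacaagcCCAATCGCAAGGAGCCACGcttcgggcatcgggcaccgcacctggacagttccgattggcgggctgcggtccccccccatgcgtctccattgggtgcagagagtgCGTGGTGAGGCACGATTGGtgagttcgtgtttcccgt
Dnajc3: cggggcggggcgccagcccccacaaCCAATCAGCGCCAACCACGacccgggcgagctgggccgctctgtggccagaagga

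**Figure D1:**
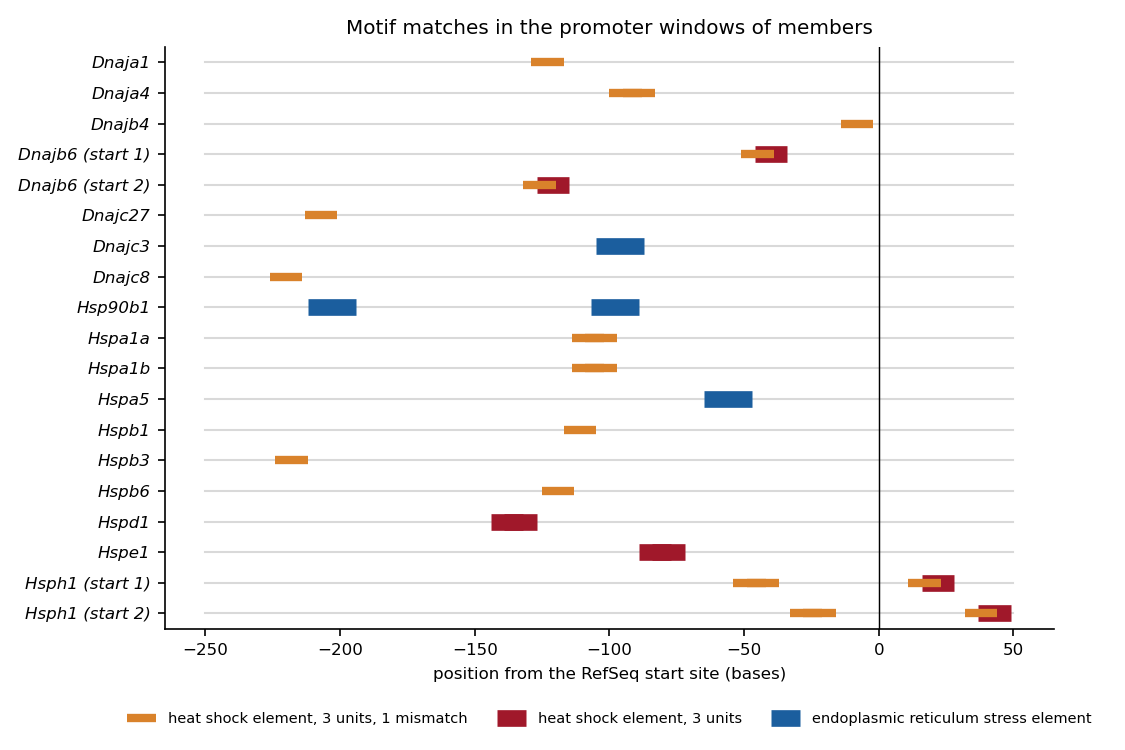
Positions of motif matches in the promoter windows of members, in bases from the RefSeq start site (x axis), with 1 line per window. The 4-unit element of Hspd1 and Hspe1 appears as a longer red block, and the endoplasmic reticulum stress elements (blue) lie in Dnajc3, Hsp90b1 and Hspa5.

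The tables summed to 28916263 (replicate 1) and 26426710 (replicate 2) expected counts, so a count of 0 allows up to 0.104 and 0.114 CPM (counts per 1000000), the level of 3 counts; such limits cover counting error only. Levels are given in TPM, which is corrected for transcript length. The sort genes Kit (98.1 and 92.95 TPM) and Cd34 (74.5 and 55.4 TPM) were read in both libraries, and Ly6a and Il7r had 0 counts. The other 2 gate genes, which encode Fc receptors, were higher in replicate 2: Fcgr2b read 2.48 and 9.59 TPM and Fcgr3 0.64 and 4.27 TPM. Of 15 markers of mature blood cells, vessel, stroma and liver, 8 had 0 counts in both libraries, and Pecam1, which progenitors also express, was the single one above 1 TPM. The list summed to 21.2 and 18.6 TPM.

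The families took 0.571% of all counts in replicate 1 and 0.535% in replicate 2, at a summed level of 4202 and 3542 TPM. Of the 73 members, 52 (71.2%) reached 1 TPM in both libraries, against 9639 (44.9%) of all protein-coding genes. A further 6 reached it in 1 library, and 14 had 0 counts in both. The median level was 8.38 ± 0.255 TPM (SD, n = 2), against 0.445 ± 0.177 TPM for all protein-coding genes. Fewer cells making an RNA and less RNA per cell cannot be told apart in pools.

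Levels within the families were steep. Hspa8, Hsp90ab1 and Hsp90aa1 together held 63.6% of the members' TPM in replicate 1 and 58.8% in replicate 2. Hspa8 (chromosome 9, 40800984 to 40810087), the constitutive HSP70 known as HSC70, read 1295 and 1032 TPM in replicates 1 and 2. Hsp90ab1 (chromosome 17, 45567775 to 45573271), the constitutive HSP90 of the cytosol, read 857 and 703 TPM. Hsp90aa1 (chromosome 12, 110690605 to 110702728), the HSP90 classed as inducible, read 522 and 349 TPM. The next 7 were Hspe1 (248.6 ± 27.0 TPM), Hspd1 (140.5 ± 10.4), the mitochondrial HSP70 Hspa9 (92.96 ± 21.3), Hsp90b1 (87.3 ± 5.96), Hspa5 (71.5 ± 2.28), the spliceosome-associated Dnajc8 (68.8 ± 9.14) and the HSP90 co-chaperone Dnajc7 (64.2 ± 13.8). The ranges of neighbours overlapped for Hspa9 with Hsp90b1 and for Hspa5, Dnajc8 and Dnajc7. Those of the first 5 genes did not overlap.

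**Figure D2:**
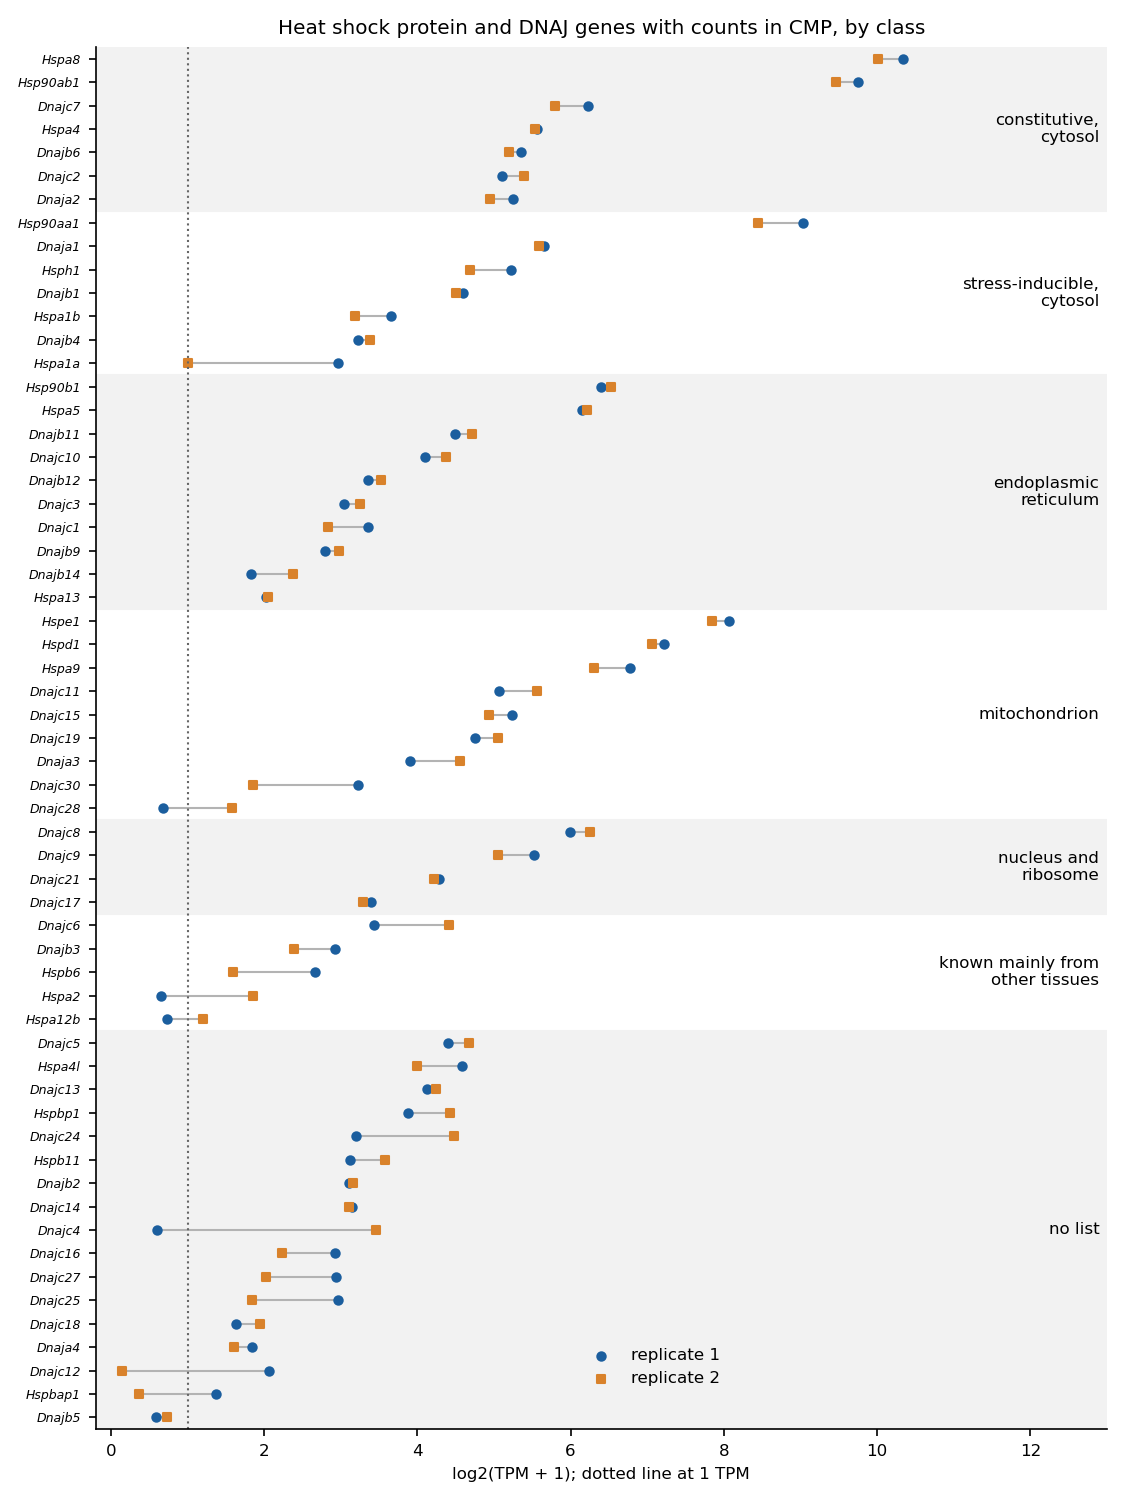
Level of each of the 59 members with counts, as log2(TPM + 1), in replicate 1 (circles) and replicate 2 (squares), grouped by class. All 7 constitutive members lie above 1 TPM, the inducible members span from Hsp90aa1 down to Hspa1a, and Dnajc4, Dnajc12 and Hspa1a lie far apart between the libraries.

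By compartment, every member of the constitutive cytosolic list (7 of 7), the endoplasmic reticulum list (10 of 10) and the nuclear and ribosomal list (4 of 4) was detected in both libraries. The mitochondrial list had 8 of 9 at a median of 32.3 ± 0.0849 TPM. In the endoplasmic reticulum the median was 9.38 ± 0.216 TPM, and the 4 highest were Hsp90b1, Hspa5, Dnajb11 (23.4 ± 2.71 TPM), a J-domain partner of BiP, and Dnajc10 (16.07 and 19.8 TPM), a J-domain protein that reduces disulfides. In the mitochondrion Hspe1, Hspd1 and Hspa9 were followed by Dnajc11 (39.3 ± 9.84 TPM). Retained introns made up 74.0% and 71.4% of Dnajc11, whose protein-coding transcripts held 6.84 and 13.2 TPM, below the 25.9 and 32.2 TPM of Dnajc19, a subunit of the import motor. The nuclear and ribosomal list was led by Dnajc8, the histone chaperone Dnajc9 (38.5 ± 9.20 TPM), Dnajc21 (18.4 and 17.6 TPM), a factor of ribosome maturation, and Dnajc17 (9.54 and 8.76 TPM).

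Members known mainly from testis, muscle, nerve, lens or endothelium were mostly not detected. Of 15 such genes, 3 were detected in both libraries and 10 had 0 counts in both. The 3 were Dnajc6 (9.82 and 20.2 TPM), the auxilin of clathrin uncoating in neurons, the testis gene Dnajb3 (6.56 and 4.22 TPM) and the small heat shock gene Hspb6 (5.36 and 2.02 TPM). The fourth highest was Hspa2, the HSP70 of spermatocytes, at 0.57 and 2.61 TPM. Dnajb3 and Hspb6 overlap genes on the opposite strand (Ugt1a genes, and Lin37 with Proser3). Whether the deposited counting used strand is not given in the sources used here, so their reads cannot be told apart from those of these neighbours. The protein-coding transcript of Hspb6 held 1.5 TPM in replicate 1 and 0 in replicate 2, the rest being processed transcripts. The members at 0 counts in both libraries were Hspb1, Hspb2, Hspb3, Hspb7, Hspb8, Hspb9, Hspa1l, Hspa12a, Dnajb7, Dnajb8, Dnajb13, Dnajc5b, Dnajc5g and Dnajc22. Of the 10 symbols that begin with Hspb, 3 were detected in both libraries, and these were Hspb6, Hspb11 and Hspbp1.

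The constitutive and the stress-inducible cytosolic members overlapped in level. The constitutive list (Hspa8, Hsp90ab1, Hspa4, Dnaja2, Dnajb6, Dnajc2 and Dnajc7) had a median of 45.8 ± 0.629 TPM, and the inducible list of 9 had a median of 10.5 ± 1.51 TPM. On the log2(TPM + 1) scale the medians were 5.56 and 3.65 in replicate 1 and 5.53 and 3.38 in replicate 2, a difference of 2.03 ± 0.17 (SD, n = 2). With 2 libraries the smallest two-sided p of an exact sign-flip permutation test is 0.5, so this difference is given as a description. Its size depends on Hspb1 and Hspb8, inducible members with 0 counts in both libraries. Among the other 7 the middle member was Dnajb1 (23.2 and 21.8 TPM), which is nearer to the constitutive median. Hsp90aa1 alone made up most of the inducible list's summed 657.5 and 461.1 TPM, which fell to 135.7 and 112.0 TPM without it.

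Each inducible member had its own basal level. Dnaja1 (chromosome 4, 40722150 to 40737149), a J-domain partner of HSC70, read 49.4 and 47.0 TPM. Hsph1 (chromosome 5, 149614287 to 149636376), an exchange factor of the HSP110 kind, read 36.4 and 24.7 TPM. Dnajb1 (chromosome 8, 83608193 to 83612653), known as HSP40, read 23.2 and 21.8 TPM. Outside Hspa8 and Hsp90ab1, the constitutive members read from 29.7 TPM (Dnaja2, replicate 2) to 73.9 TPM (Dnajc7, replicate 1). With all transcripts of a gene counted, Dnaja1 lay inside that range in both libraries, Hsph1 in replicate 1 alone, and Dnajb1 below it in both. In replicate 2, 21.4 TPM of Dnaja1 came from processed transcripts. From protein-coding transcripts alone the same constitutive members read from 17.5 TPM (Dnajc7, replicate 2) to 38.15 TPM (Hspa4, replicate 1). Against that range Dnaja1 (47.8 and 25.7 TPM) lay above in replicate 1 and inside in replicate 2. Hsph1 (30.7 and 24.0 TPM) and Dnajb1, all of it protein-coding, lay inside in both. Without Dnajc7 the range began at 29.2 TPM (Dnajb6, replicate 2). Dnajb1 in both libraries, and Dnaja1 and Hsph1 in replicate 2, lay below that. Dnajb4 (8.37 and 9.42 TPM), another J-domain protein, and Hspa1b (11.6 and 8.06 TPM) were lower. Hspa1a (chromosome 17, 34969190 to 34972156) read 6.81 and 1.00 TPM. Hspb1 and Hspb8, small heat shock proteins that hold unfolded clients, had 0 counts, which allows up to 0.189 and 0.194 TPM for Hspb1 and 0.128 and 0.131 TPM for Hspb8.

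Pairs of related genes were compared within each library by limma's moderated test of the log2 ratio of TPM + 1, first gene over second. Variance in this test is mostly borrowed from other genes, since 2 libraries give 1 degree of freedom of their own. Of 15 pairs fitted, 13 passed at an adjusted p under 0.05. Most genes differ from an abundant reference, so these counts stand beside the share of all 11668 protein-coding genes that passed against the same first gene: 99.2% for Hspa8, 99.4% for Hsp90ab1, 98.3% for Hspd1, 94.8% for Hspa5, 90.0% for Hspa4, 87.1% for Dnajb6, 82.1% for Dnaja2 and 74.4% for Dnajb11. The number of pairs that passed is near those shares and says little about chaperones in particular, while the size and sign of each ratio do describe the pair.

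Among HSP70 genes, Hspa8 exceeded all others measured. Its log2 ratio was 7.37 and 9.01 over Hspa1a in the 2 libraries (mean 8.19, SE 0.52, limma adjusted p = 7.3e-20) and 6.69 and 6.83 over Hspa1b (6.76, SE 0.39, limma adjusted p = 4.8e-21). Over Hspa2 it was 9.69 and 8.16 (8.92, SE 0.54). Against organelle HSP70 genes the gap was narrower, at 4.0 (SE 0.27) over Hspa5 and 3.64 (SE 0.27) over Hspa9, also past the limma test. Hspa1l, the testis HSP70 next to Hspa1a, had 0 counts, and Hspa8 was at least 16294-fold higher in the library with the lower bound. Within the endoplasmic reticulum Hspa5 exceeded Hspa13, an HSP70-like protein of microsomes, by 4.14 (SE 0.41, limma adjusted p = 4.0e-06).

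The HSP90 genes of the cytosol were close in level. Hsp90ab1 was higher than Hsp90aa1 by 0.71 and 1.01 on the log2 scale (mean 0.86, SE 0.30, limma adjusted p = 0.00576), and higher than Hsp90b1 by 3.35 and 2.93 (3.14, SE 0.25). The HSP110 genes showed the same order of constitutive over inducible at a smaller size, Hspa4 exceeding Hsph1 by 0.34 and 0.85 (0.59, SE 0.22, limma adjusted p = 0.0298). The limma call for Hspa4 over Hsph1 was lost without the variance trend (adjusted p = 0.104). Hspa4 exceeded its paralog Hspa4l by 0.98 and 1.54 (1.26, SE 0.25, limma adjusted p = 0.00140). Of Hspa4l, 18.9 and 14.4 TPM came from transcripts with no type in GENCODE M21. Its protein-coding transcript held 4.10 and 0.53 TPM, against 38.15 and 30.46 TPM for that of Hspa4. The protein-coding transcript of Hsph1 held 30.72 and 24.04 TPM, the same order below Hspa4 with a smaller gap.

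J-domain proteins of the cytosol gave no uniform order. Dnaja1 read above Dnaja2 in both libraries, with a log2 ratio of Dnaja2 over Dnaja1 of -0.40 and -0.64 that did not pass (mean -0.52, SE 0.26, limma adjusted p = 0.0659). With posterior mean TPM, a second estimate in the deposited tables, that limma test passed (adjusted p = 0.0492). From protein-coding transcripts alone Dnaja1 held 47.8 and 25.7 TPM against 37.1 and 29.7 TPM for Dnaja2, all of it protein-coding, so the order turned in replicate 2. Dnaja2 over Dnajb1 was 0.65 and 0.43 (0.54, SE 0.30, limma adjusted p = 0.0930). Dnajb6 exceeded Dnajb1 by 0.75 and 0.68 (0.72, SE 0.25, limma adjusted p = 0.0117), a call lost without the variance trend (limma adjusted p = 0.0593). Dnajb11 exceeded Dnajb9, another J-domain partner of BiP, by 1.70 and 1.74 (1.72, SE 0.39, limma adjusted p = 0.00143). Of Dnajb11, 13.96 and 12.6 TPM came from a transcript of 546 bases that has no type in GENCODE M21. The protein-coding transcripts of Dnajb11 held 7.54 and 12.8 TPM against 5.92 and 6.90 TPM for Dnajb9, the same order with a smaller gap.

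The chaperonin pair favoured the lid. Hspe1, a short gene product that caps the Hspd1 ring, was higher than Hspd1 per length in both libraries, with a log2 ratio of Hspd1 over Hspe1 of -0.85 and -0.78 (mean -0.82, SE 0.19, limma adjusted p = 0.000857). Length correction sets this direction: in CPM Hspd1 was higher by 1.02 on the log2 scale (SE 0.17, limma adjusted p = 1.69e-09).

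**Figure D3:**
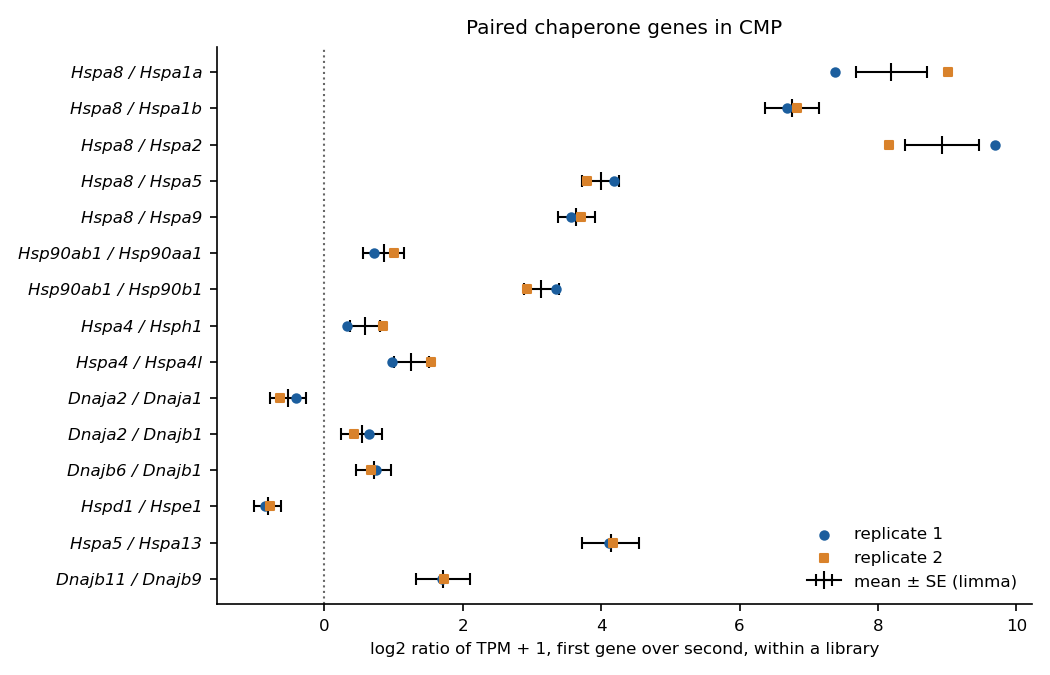
Log2 ratio of TPM + 1 for 15 pairs, first gene over second, in replicate 1 (circles) and replicate 2 (squares), with the mean and SE of the limma fit (bars). Ratios over Hspa1a, Hspa1b and Hspa2 exceed 6. The means of Hsp90ab1 / Hsp90aa1 and Hspa4 / Hsph1 lie between 0 and 1, and Dnaja2 / Dnaja1 and Hspd1 / Hspe1 fall below 0.

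Reads of close copies limit some of these values. Of the 100-base words in the transcripts of Hspa1a, 48.6% also occur in another gene, nearly all of them in Hspa1b, and for Hspa1b the share was 49.9%. Hspa1a had 395 and 57.6 expected counts and Hspa1b 631 and 436. The summed TPM of both depends little on how reads were divided between them, as their lengths are close (2967 and 2803 bases). This sum was 18.4 TPM in replicate 1 and 9.06 TPM in replicate 2. Hspa8 exceeded it by 6.06 and 6.68 on the log2 scale. Of Hspa8, 28.2% of words occur elsewhere, including the entries Gm15459 (441 and 328 counts) and Gm8355 (1318 and 365.5 counts), small beside the 42216 and 34245 counts of Hspa8. Hsp90aa1 shares 38% of its words, mostly with Gm12346 (77.9 and 117.1 counts), and Hspd1 23.4%, mostly with the pseudogene Hspd1-ps3. Hspb1 shares 44.0% with Hsp25-ps1, which also had 0 counts.

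Transcript estimates showed how much of a level came from RNA annotated as non-coding. In the 73 members together, transcripts typed as retained introns held 11.7% and 10.2% of TPM, near the 9.40% and 9.13% over all protein-coding genes. Short retained-intron and processed transcripts weigh heavily in a gene's TPM because TPM divides by length. In Hspa8 the 3 protein-coding transcripts gave 863 and 723 TPM, 66.6% and 70.1% of the gene. In Hsp90ab1 they gave 673 and 668 TPM, and in Hsp90aa1 405 and 303 TPM. The order of these 3 genes was the same in each library when protein-coding transcripts alone were counted. In Dnajc7 protein-coding transcripts held 25.3% and 32.1%, so that 18.7 and 17.5 of its 73.9 and 54.4 TPM were protein-coding.

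**Figure D4:**
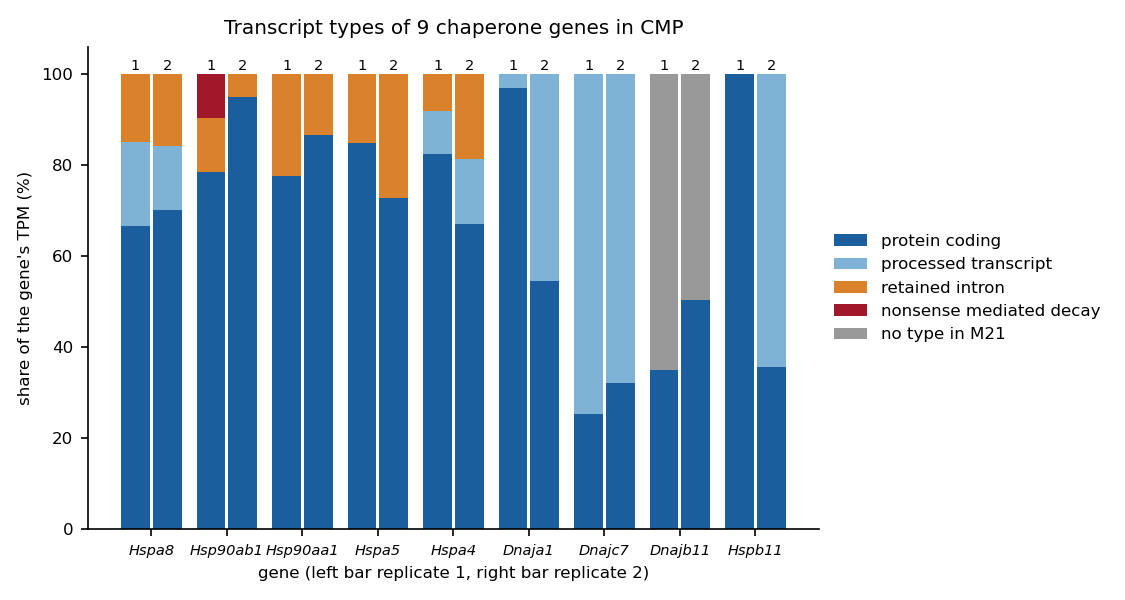
Share of each gene's TPM by transcript type of GENCODE M21 (stacked bars, percent), with replicate 1 left and replicate 2 right, for 9 members. Protein-coding transcripts dominate Hsp90ab1, while Dnajc7 consists mostly of processed transcripts in both libraries and Hspb11 and Dnaja1 change between the libraries.

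The leading transcript, the one with the most counts in a gene, was then compared between the libraries by Fisher's exact test. Of the 38 members with at least 2 transcripts and 50 counts in each library, 30 passed at an adjusted p under 0.05. Over all 7355 genes tested the share was 77.7%, so the members were near it. Hsp90aa1-202 held 54.6% of the gene's counts in replicate 1 (95% Wilson interval 53.96 to 55.2) and 38.3% in replicate 2 (37.6 to 39.0), and the other main protein-coding transcript, Hsp90aa1-201, held 39.2% and 58.4%. Hspa5-202 went from 75.8% (74.3 to 77.2) to 40.2% (38.5 to 41.8), with the longer Hspa5-201 at 21.7% and 55.7%. Dnaja1-201 held 86.8% (85.4 to 88.1) and 68.7% (66.8 to 70.5). By contrast, Hspa8-202 held 50.1% (49.6 to 50.6) and 51.3% (50.8 to 51.8), and Hspe1-201 98.1% (97.6 to 98.5) and 98.7% (98.2 to 99.0), the last with a Fisher's exact adjusted p of 0.139. These intervals hold counting error only and not the uncertainty of dividing reads among transcripts, and with 2 libraries no difference of transcript use can be set against a spread within a group.

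Counts of each member in the 2 libraries were compared by an exact binomial test after TMM scaling, which asks only whether 2 libraries differ beyond counting error. Of 59 members tested, 31 were called higher in replicate 1 and 14 higher in replicate 2. Of all 13616 genes tested, 37.5% were called higher in replicate 1 and 40.5% higher in replicate 2, so most genes differ between these libraries beyond counting error. The split depends on the scaling. With scaling by total counts, which moved the median log2 ratio of all genes from -0.03 to -0.23, 19 members (32.2%) were higher in replicate 1 and 24 (40.7%) in replicate 2, against 26.5% and 52.4% of all genes. With edgeR's exact test at the common dispersion (biological coefficient of variation 0.759), 0 members and 0 genes were called; 2 members and 1541 genes had an unadjusted p under 0.05 in edgeR. The common dispersion was estimated from the same 2 libraries taken as 1 group. The difference under test thus also set the noise, so that edgeR test could call little. The median absolute log2 ratio was 0.36 for the 57 members with 100 or more counts and 0.40 for all 11001 such genes.

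Of the 7 classes, the stress-inducible members had the highest median ratio of replicate 1 over replicate 2, with TMM and with total-count scaling. Of the 7 tested, 5 were higher in replicate 1 and 0 in replicate 2 by the binomial test, at a median log2 ratio of 0.52. Of all genes, 37.5% were higher in replicate 1 and 40.5% in replicate 2. Under total-count scaling the split was 4 and 1, at a median of 0.32, beside 26.5% and 52.4% of all genes. Hspa1a was higher in replicate 1 by 2.79, Hsph1 by 0.57, Hspa1b by 0.56, Hsp90aa1 by 0.52 and Dnaja1 by 0.14 on the log2 scale, and Dnaja1 was at -0.06 under total-count scaling. Dnajb1 (0.13) and Dnajb4 (-0.04) did not pass. The separate ratios of Hspa1a and Hspa1b rest on how shared reads were divided between them. Their summed counts were 1026 in replicate 1 and 494 in replicate 2. The constitutive members had 6 of 7 higher in replicate 1 and a median of 0.26, which under total-count scaling became 2 higher and 2 lower at 0.05. The same shares of all genes stand beside these counts. Of 10 members of the endoplasmic reticulum, 2 were higher in replicate 1 and 5 in replicate 2, a count near the 40.5% of all genes. Under total-count scaling it was 1 and 8, where 52.4% of all genes were higher in replicate 2. Whether the classes differ from each other in this shift was not tested.

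Single members differed more, though the ratio of Hspa1a rests on how reads shared with Hspa1b were divided. In addition to Hspa1a, the largest ratios towards replicate 1 among members with 50 counts or more in a library were Hspbap1 at 2.48 (145 and 26 counts), Dnajc30, a mitochondrial protein, at 1.72 (260 and 80 counts), Dnajc25 at 1.64 (401 and 131 counts) and Hspb6 at 1.47 (129 and 47 counts). Towards replicate 2 they were Dnajc4 at -3.70 (10 and 139 counts), Hspa2 at -2.12 (28 and 126 counts), Dnajc28 at -1.64 (42 and 135 counts), Dnajc24, a factor of diphthamide synthesis, at -1.24 (87 and 210 counts) and Hspa12b at -0.95 (44 and 87 counts). Dnajc30 overlaps Bud23 on the opposite strand, and Dnajc25 shares its strand and part of its sequence with Gm20503 (16 and 0 counts). Dnajc12, at 30 and 1 counts, fell under the limit of 50.

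**Figure D5:**
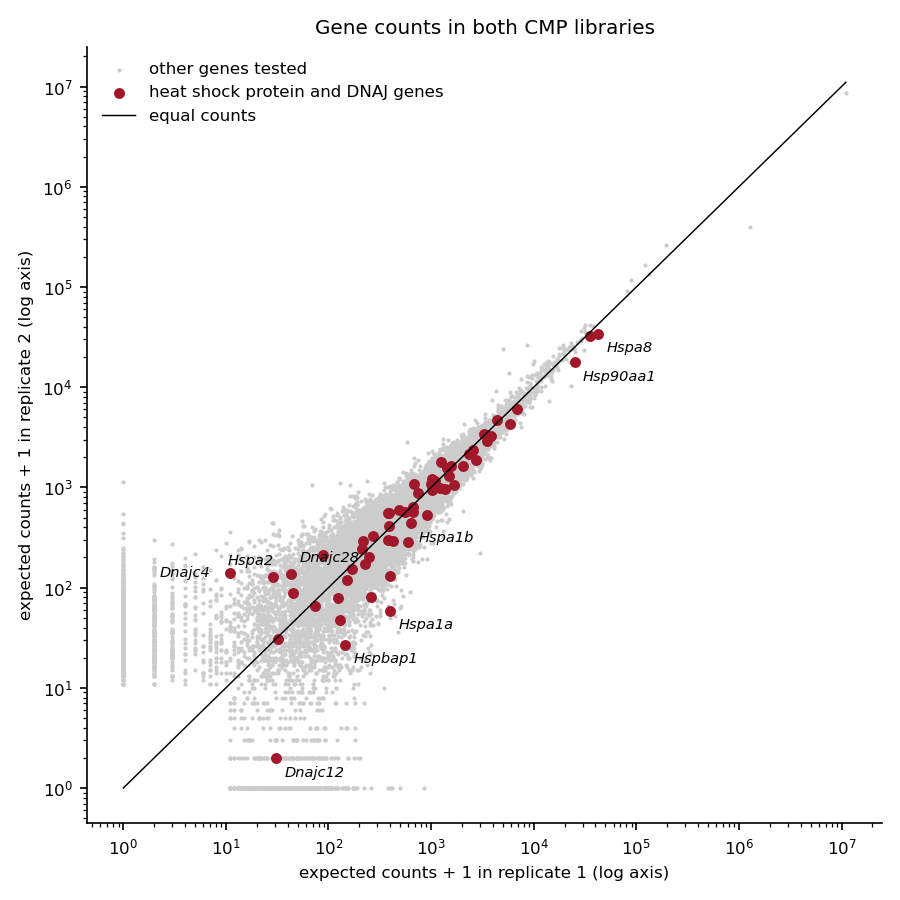
Expected counts + 1 of each gene tested in replicate 1 (x axis, log) and replicate 2 (y axis, log), with members in red, other genes in grey and the line of equal counts. Abundant members such as Hspa8 lie close to the line, while Hspa1a, Hspbap1 and Dnajc12 lie below it and Dnajc4 and Hspa2 above it.

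Genes that work with the families were largely present. Of 69 partner genes in 7 lists, 60 reached 1 TPM in both libraries. Of the heat shock factors, Hsf1 read 16.4 and 20.97 TPM and Hsf2 3.51 and 3.74 TPM, Hsf3, Hsf4 and Hsf5 had 0 counts, and Hsbp1, a small HSF1-binding protein, read 51.7 and 52.6 TPM. All 13 HSP70 co-chaperones were detected, led by Bag6 (99.97 and 82.9 TPM), Bag1 (74.3 and 69.05 TPM), an exchange factor, and Stip1 (76.0 and 60.4 TPM), the adaptor that joins HSP70 to HSP90. Of 14 genes of HSP90 co-chaperones with the mitochondrial HSP90 Trap1, 13 were detected, led by the immunophilins Fkbp4 (92.1 and 81.5 TPM) and Ppid (60.6 and 87.0 TPM) and by the co-chaperone p23, Ptges3 (74.5 and 64.9 TPM). Unc45b, the myosin chaperone of muscle, had 0 and 114 counts. The 4 J-domain genes without a Dnaj symbol were all detected, Gak (38.9 and 47.4 TPM), Hscb and Sec63 among them.

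Targets of HSF1 outside the families were read at very different levels, as the inducible members were. Of 10 such genes, 7 were detected in both libraries, with Ubb, a polyubiquitin gene, at 320.4 and 320.0 TPM and Fkbp4 again among the highest. Bag3, the exchange factor that links HSP70 to selective autophagy, read 4.22 and 3.90 TPM. Serpinh1, the collagen chaperone, had 0 counts, the lens crystallin Cryab 11 and 1 counts, and Hmox1 0 and 73 counts. All 16 genes of the endoplasmic reticulum stress list were detected, with Calr (224.0 and 158.0 TPM), Canx (117.2 and 93.3 TPM) and Manf (71.5 and 48.9 TPM) as the highest. By the binomial test 9 of them were higher in replicate 1 and 4 in replicate 2, beside 37.5% and 40.5% of all genes.

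Immediate early genes, known for a fast response to stimulation and to cell handling, were higher in replicate 2, the library in which most inducible members were lower. Of 12, 10 were detected in both libraries, and 11 had a higher TPM in replicate 2, the remaining one, Atf3, having 0 counts in both. Their summed level was 80.0 TPM in replicate 1 and 171.0 TPM in replicate 2. The highest were Dusp1 (11.1 and 39.5 TPM), Zfp36 (10.3 and 33.5 TPM) and Jun (9.52 and 20.6 TPM), and Fosb, below 1 TPM in replicate 1, read 0.14 and 4.88 TPM. Of the 11 tested, 9 were called higher in replicate 2 by the binomial test and 0 higher in replicate 1, beside 40.5% and 37.5% of all genes. Their part in the differences of Hspa1a and the other inducible members was not tested.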

How the data were processed

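Total RNA-seq of 2 CMP libraries was used as deposited. Per the file headers and readme, the authors aligned reads to the mm10 transcriptome (GENCODE M4). Not given in the sources used here are aligner, quantifier, versions and strand setting. The authors' expected counts divide shared reads among genes. The deposited TPM run over all entries, tRNA and spike-ins included, and the deposited posterior mean TPM (a score here, since it is a second estimate) and posterior mean counts served as alternatives. The deposited percent values give each transcript's share of its gene. Symbols came from GENCODE M21 (GRCm38) by unversioned identifier, for 42462 of 43346 mouse genes. A gene was detected at 1 TPM or more.

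Pairs were tested with limma 3.58.1 on log2(TPM + 1) against every protein-coding gene with 10 or more counts in a library, two-sided, with a variance trend. Libraries were compared on counts rounded to whole numbers, ribosomal RNA left out, with an exact binomial test after TMM scaling (edgeR 4.0.16), and leading transcripts with Fisher's exact test. All p-values were adjusted by Benjamini-Hochberg over all genes of a fit, at 0.05. The scripts were tested on simulated data. Promoters came from RefSeq (GRCm38.p6) and were searched on both strands, and 100-base words shared between genes were counted in GENCODE M21 transcripts.

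Members, lists and pairs were chosen with earlier results of these data known. Named genes are all pair genes and cytosolic members, the 10 highest members, the 4 highest of each member list, members at 0 counts, the 5 largest library ratios in each direction among members with 50 or more counts, and the 3 highest and up to 3 lowest of each partner list. The entries that share sequence with a member (Gm15459, Gm8355, Gm12346) and other genes outside this rule were chosen after their values were seen. One gene under this rule is not reported here.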

Additional observations from a re-analysis of the deposited data

Results flagged for a closer look

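The pseudogene entry Hspd1-ps3, which is no member, held 52.44 expected counts in replicate 1 and 83.99 in replicate 2, above the limit of 3 counts that a count of 0 allows. It was flagged as signal in data outside the comparisons. It stood at 1.62 and 2.63 TPM, against 147.9 and 133.2 TPM for Hspd1, with which it shares 22.4% of the 100-base words of Hspd1 transcripts, and it rests on how the deposited counts divide shared reads.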

How the results depend on the processing

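The difference between the medians of constitutive and inducible members kept its direction with other estimates and with either library left out. Rescaling and a pseudocount of 0.1 keep the order of the medians by construction. Dropping Hsp90aa1, the highest inducible member, was chosen after seeing the data. That can only keep or widen the difference, which became 2.19. Rescaling TPM over nuclear protein-coding genes raised the members' median from 8.38 to 21.8 TPM, by construction. Of the 15 pairs, 1 reversed, Hspd1 over Hspe1, at 1.02 in CPM. Leaving out either library changed the direction of none of the 15 pairs. For Hspa1a and Hspa1b summed, an alternative chosen after seeing the data, the ratio of Hspa8 was 6.37 on the log2 scale. Without length correction Dnajb6 over Dnajb1 (0.18, limma adjusted p = 0.525) and Dnajb11 over Dnajb9 (0.98, adjusted p = 0.0593) no longer passed and Dnaja2 over Dnajb1 did (0.89, adjusted p = 0.00129). Under edgeR's exact test at the common dispersion 0 members were called between the libraries, in either direction, against 45 by the binomial test. That dispersion came from the same 2 libraries, so the edgeR test could call little. Total-count scaling gave 19 higher in replicate 1 and 24 in replicate 2, against 31 and 14. With protein-coding transcripts alone, which leaves fewer genes to test, 16 of 26 members had a leading transcript called (72.5% of all genes there), against 30 of 38. Promoters with a heat shock element numbered 14 with 1 mismatch allowed and 2 with 4 units required, against 4. No paired analysis was possible because the series holds 1 group. Depth limits little above 1 TPM, and the 2 pools of 100 cells, with no further replicate, limit every comparison.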
